A study of Mus musculus with 42 samples.

Results

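The 36 aminoacyl-tRNA synthetase genes listed by symbol in the deposited table were examined, 20 of them for the cytosolic enzymes and 16 for the mitochondrial enzymes, whose symbols end in 2. All 36 were found by name among the 13809 genes of the table and all 36 passed the filter on low values. RNA-seq had been performed on tibialis anterior muscles of male mice, labelled in every sample as 4 months old and C57BL/6J, in 42 libraries that the labels divide into 2 sets. Set 1 (22 libraries) held WT, Sesn1SkM-Tg and Sesn2SkM-Tg mice, each in the basal and the immobilized state. Set 2 (20 libraries) held WT mice in the basal, immobilized and denervated states and Sesn1KO mice in the basal and immobilized states. Each group had 4 libraries, except the immobilized WT and immobilized Sesn1SkM-Tg groups of set 1, which had 3. Sesn1SkM-Tg mice carried human Sesn1 under the muscle creatine kinase (MCK) promoter. Sesn2SkM-Tg mice carried a tetracycline-regulated Sesn2 driven by a transactivator under the same promoter. The study describes Sesn1KO mice as deficient in Sesn1. In the study's methods, immobilization meant fixing a hindlimb with rigid sticks and bandage, and denervation meant removing a segment of the sciatic nerve. Immobilization lasted 3 days in WT mice by the study's text, and in all genotypes by the description of its supplementary data. The labels give no time after either procedure and do not say that the libraries of a group came from separate mice, so the p-values below measure the spread between these libraries. Comparisons were made within a set, against the basal muscle of the same genotype or against the WT muscle of the same treatment.

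Aminoacyl-tRNA synthetases join each amino acid to its transfer RNA, the step that supplies charged tRNA to the ribosome. The cytosolic enzymes serve the translation of nuclear-encoded messages, and a separate set of nuclear genes encodes the enzymes imported into mitochondria, where they serve translation of the respiratory chain subunits made there. Gars and Kars encode the glycyl and lysyl enzymes of both compartments, and mitochondrial glutaminyl-tRNA is made by an amidotransferase rather than a synthetase. In muscle, whose mass depends on the balance of protein synthesis and breakdown, several of the cytosolic genes are known targets of ATF4, the transcription factor of the integrated stress response. Sestrins are stress-induced proteins that restrain mTORC1 signaling.

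The deposited values are normalized counts, with no library total given, so the depth is unknown. They summed to between 722430 and 1276769 per library, and the sums of the denervated libraries (722430 to 811541) lay below those of the WT basal libraries of set 2 (1042064 to 1099736). Replicate libraries of a group correlated at 0.959 to 0.991 over genes on the log2 scale. All 8 fast-fiber genes checked as muscle markers were present at high values, and their sum ranged from 129700 to 144600 in the WT basal and from 53850 to 69800 in the WT denervated libraries of set 2. Sesn1 read 14.98 to 22.1 in WT and 41.6 to 77.6 in Sesn1SkM-Tg basal muscle, and Sesn2 read 2.18 to 3.39 in WT and 6.54 to 13.03 in Sesn2SkM-Tg basal muscle. In set 2, Sesn1 read 22.5 to 29.7 in WT and 8.41 to 10.1 in Sesn1KO basal muscle, but 30.7 to 53.1 in WT and 19.4 to 37.3 in Sesn1KO immobilized muscle, where the groups overlapped. Whether the counted Sesn1 reads lie outside the deleted part could not be told from the table. In the annotation 11 of the 36 members shared at least 1% of the 50-base runs of their transcripts with another gene, among them Iars2 (22% with Rab3gap2), Aars (13.5% with Exosc6), Fars2 (7.73% with Nrn1), Farsb (7.27% with Sgpp2), Iars (7.15% with Gm4849) and Vars2 (6.45% with Gm20483), and reads from such stretches cannot be told apart. In whole muscle, a lower value can come from fewer cells of a type or from less RNA per cell, and these cannot be told apart.

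The promoters were read first, because a match to the letters TGATGNAA, the core of the element bound by ATF4 and its C/EBP partners, is shared by several of the cytosolic genes. The search covered both strands of the RefSeq windows (GRCm38.p6) from 250 bases before to 50 bases after the start of each gene, and no other motif was searched. The letters were found in 1304 of 32851 windows of that length (3.97%). They were found in 5 of the 12 cytosolic members that had a window (41.7%) and in 0 of the 14 mitochondrial members that had one. The other 8 cytosolic members (Cars, Hars, Lars, Mars, Nars, Rars, Vars and Wars) and Hars2 and Pars2 had no window in the table. The 5 windows with a match are shown because they are the members that carry the match, with the matched letters in capitals. Each is written 5′ to 3′ on the strand of its gene, so a match on the opposite strand appears as its reverse complement.
Aars (alanyl, chr8:111033592-111033891, plus strand): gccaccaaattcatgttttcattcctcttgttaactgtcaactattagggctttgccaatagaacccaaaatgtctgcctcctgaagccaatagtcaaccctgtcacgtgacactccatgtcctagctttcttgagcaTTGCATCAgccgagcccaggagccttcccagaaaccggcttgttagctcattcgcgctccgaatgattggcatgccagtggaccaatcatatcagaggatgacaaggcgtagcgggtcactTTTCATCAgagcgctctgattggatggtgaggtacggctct
Gars (glycyl, chr6:55037751-55038050, plus strand): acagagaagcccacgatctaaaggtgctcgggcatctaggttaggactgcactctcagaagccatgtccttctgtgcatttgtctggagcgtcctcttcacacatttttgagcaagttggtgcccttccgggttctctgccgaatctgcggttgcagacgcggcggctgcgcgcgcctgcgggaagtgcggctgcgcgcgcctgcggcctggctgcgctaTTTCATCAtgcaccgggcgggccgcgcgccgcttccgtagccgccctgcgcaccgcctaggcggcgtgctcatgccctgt
Iars (isoleucyl, chr13:49681880-49682179, plus strand): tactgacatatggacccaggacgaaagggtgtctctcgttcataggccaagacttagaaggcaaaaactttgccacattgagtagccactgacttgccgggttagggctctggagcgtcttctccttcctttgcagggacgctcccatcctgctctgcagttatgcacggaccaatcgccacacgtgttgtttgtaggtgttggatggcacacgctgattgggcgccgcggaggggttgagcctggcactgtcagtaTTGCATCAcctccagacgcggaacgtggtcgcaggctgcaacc
Tars (threonyl, chr15:11399609-11399908, minus strand): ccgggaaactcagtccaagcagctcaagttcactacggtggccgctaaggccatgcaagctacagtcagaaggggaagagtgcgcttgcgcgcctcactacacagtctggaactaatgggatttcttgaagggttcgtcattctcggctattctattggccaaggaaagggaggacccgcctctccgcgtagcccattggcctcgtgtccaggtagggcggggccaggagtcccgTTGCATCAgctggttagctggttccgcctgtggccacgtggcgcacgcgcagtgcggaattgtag
Yars (tyrosyl, chr4:129189653-129189952, plus strand): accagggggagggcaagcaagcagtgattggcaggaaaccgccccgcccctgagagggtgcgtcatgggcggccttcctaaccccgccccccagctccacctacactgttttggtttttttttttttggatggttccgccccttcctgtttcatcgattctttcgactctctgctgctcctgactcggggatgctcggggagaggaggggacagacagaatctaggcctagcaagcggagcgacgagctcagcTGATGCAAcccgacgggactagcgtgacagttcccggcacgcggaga
Aars held 2 matches, which began 112 bases before and 9 bases after the start. The single match began 30 bases before the start in Gars, 15 bases before it in Tars, 7 bases after it in Iars and 3 bases after it in Yars. Yars held its match on the strand of the gene, and the other 4 genes held theirs on the opposite strand. A match describes these letters in this window and is not evidence of binding.

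In basal muscle the cytosolic messages were the more abundant list. Per kilobase of the principal transcript (GENCODE M21), the median level of the 20 cytosolic members in WT basal muscle of set 2 was 19.9 normalized counts, and that of the 16 mitochondrial members was 6.24. In WT basal muscle of set 1 the medians were 22.7 and 6.51. In WT basal muscle of set 2 the highest cytosolic level was that of Eprs, at 51.4 per kb (range 49.0 to 54.6). Eprs encodes the enzyme for both glutamate and proline. Kars followed at 43.8 (42.4 to 45.5), then Nars, the asparaginyl enzyme, at 41.2 (39.4 to 44.4). Kars and Nars overlapped between libraries of that group, whereas Eprs lay above both in every library. In WT basal muscle of set 1 Eprs ranged from 33.4 to 73.9 per kb. There it overlapped Kars (43.4 to 66.6) and Nars (37.1 to 51.1). In set 2, to which the levels that follow belong, the lowest cytosolic level was that of Vars, the valyl enzyme. It was 7.90 per kb (7.43 to 8.79). Among the mitochondrial members, Mars2, the methionyl enzyme, was lowest at 1.11 per kb (0.979 to 1.22), with Wars2 at 1.31 (1.08 to 1.49) and Nars2 at 1.65 (1.29 to 2.02) next above it and overlapping it or each other. The last place of Mars2 rests on its annotated transcript of 11.3 kb, the longest of the 36. In counts not divided by length Mars2 lay above Pars2. Lars2, the mitochondrial leucyl enzyme, ranked first of all 36 at 89.9 per kb, but its libraries ranged from 53.9 to 149.6.

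**Figure D1:**
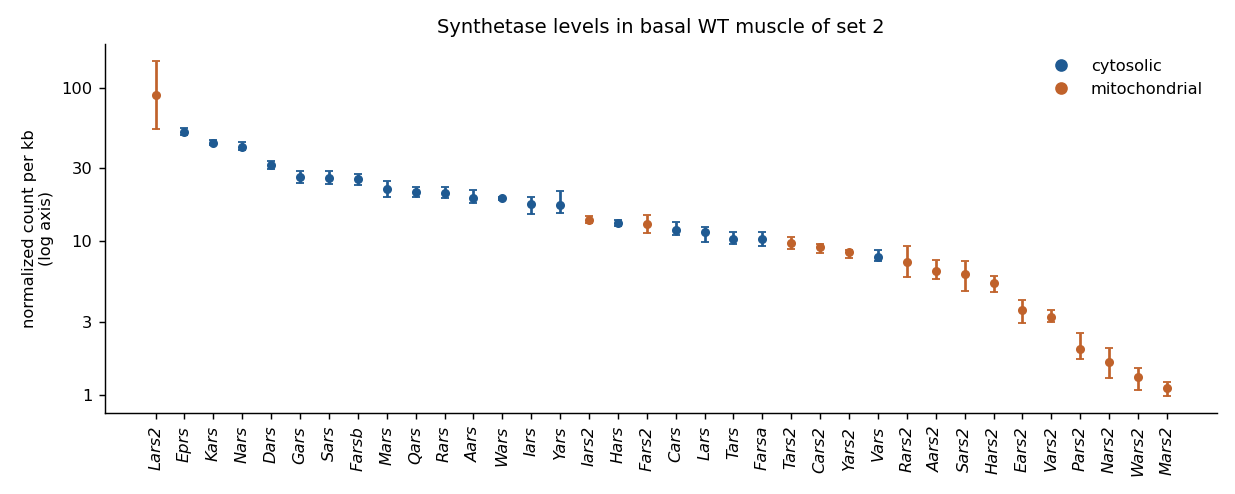
Level of each of the 36 members in WT basal muscle of set 2, as normalized counts per kb of transcript (log axis); points are means of 4 libraries and bars run from the lowest to the highest library. Cytosolic members (blue) fill most of the upper ranks, Lars2 stands first with the widest bar, and Mars2, which has the longest transcript (11.3 kb), is last at 1.11.

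Lars2 varied widely between libraries of a group. In WT basal muscle of set 2 it read 249, 582, 209.9 and 359.5 normalized counts in the 4 libraries, and in immobilized Sesn1KO muscle it read 253, 703, 1785 and 336. It was not called in any comparison. In the same 4 WT basal libraries Eprs read 255, 240.3, 246 and 268.

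Denervation raised nearly the whole cytosolic list. Of the 20 members, 19 rose and 0 fell (median log2 fold change 0.58), whereas 27.8% of the 13629 genes tested in set 2 were called higher, 27.7% were called lower, and the median of all genes was -0.027. A gene was called when the limma adjusted p was below 0.05 (Benjamini-Hochberg over all genes tested) and the log2 fold change, on the scale of log2(value + 1), was at least 0.25 in size. The largest rise was that of Vars. Vars read 32.8, 30.9, 30.8 and 36.3 in the WT basal and 87.4, 89.9, 90.02 and 76.5 in the WT denervated libraries. The lowest denervated library was above the highest basal library by a wide margin (log2 fold change 1.37 ± 0.11 (SE), limma adjusted p = 7.69e-10).
Lars, the leucyl enzyme, read 49.2, 45.1, 39.6 and 48.5 in basal and 96.1, 112, 94.7 and 85.3 in denervated muscle (log2 fold change 1.07 ± 0.10 (SE), limma adjusted p = 1.84e-08). Gars, whose product charges glycine in the cytosol and in mitochondria, read 61.6, 62.7, 57.1 and 68.2 in basal and 124, 136, 125 and 117 in denervated muscle (log2 fold change 0.99 ± 0.077 (SE), limma adjusted p = 8.14e-10). In both genes all denervated libraries lay above all basal libraries. Hars, the histidyl enzyme, read 25.8, 27.2, 26.3 and 24.9 in basal and 49.2, 51.4, 51.5 and 47.8 in denervated muscle (log2 fold change 0.91 ± 0.088 (SE), limma adjusted p = 1.89e-08). Tars read 38.9, 42.9, 38.3 and 45.96 in basal and 68.5, 79.7, 77.5 and 84.2 in denervated muscle (log2 fold change 0.88 ± 0.091 (SE), limma adjusted p = 5.19e-08). Neither pair of groups overlapped. The other 14 called members rose by 0.29 (Qars, the glutaminyl enzyme) to 0.88 (Dars, the aspartyl enzyme) on the log2 scale. They included Iars (0.61), Kars (0.61), Sars for serine (0.60), Cars for cysteine (0.58), Nars (0.57), Rars for arginine (0.57), Aars (0.56), Mars for methionine (0.54), the phenylalanyl subunits Farsa (0.50) and Farsb (0.44), Wars for tryptophan (0.41) and Yars (0.36). Eprs alone was not called (log2 fold change 0.23 ± 0.092 (SE), limma adjusted p = 0.0369). It read 255, 240.3, 246 and 268 in basal and 243, 302, 339.6 and 308 in denervated muscle, and the first denervated library lay within the basal range. Of the 5 members with a promoter match, log2 fold changes were 0.36 to 0.99, within the range of 0.23 to 1.37 of the whole list.
The library sums moved with this comparison, and the fiber markers given above fell in all 8 of 8 genes (median log2 fold change -1.09). When each library was rescaled to the same sum, the median of all genes rose to 0.35, and 20 cytosolic members were called higher. With that rescaling 8254 of all genes were called, 77.2% of them higher. Relative to the median of all genes, the cytosolic median was 0.61 as deposited and 0.69 after rescaling.

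**Figure D2:**
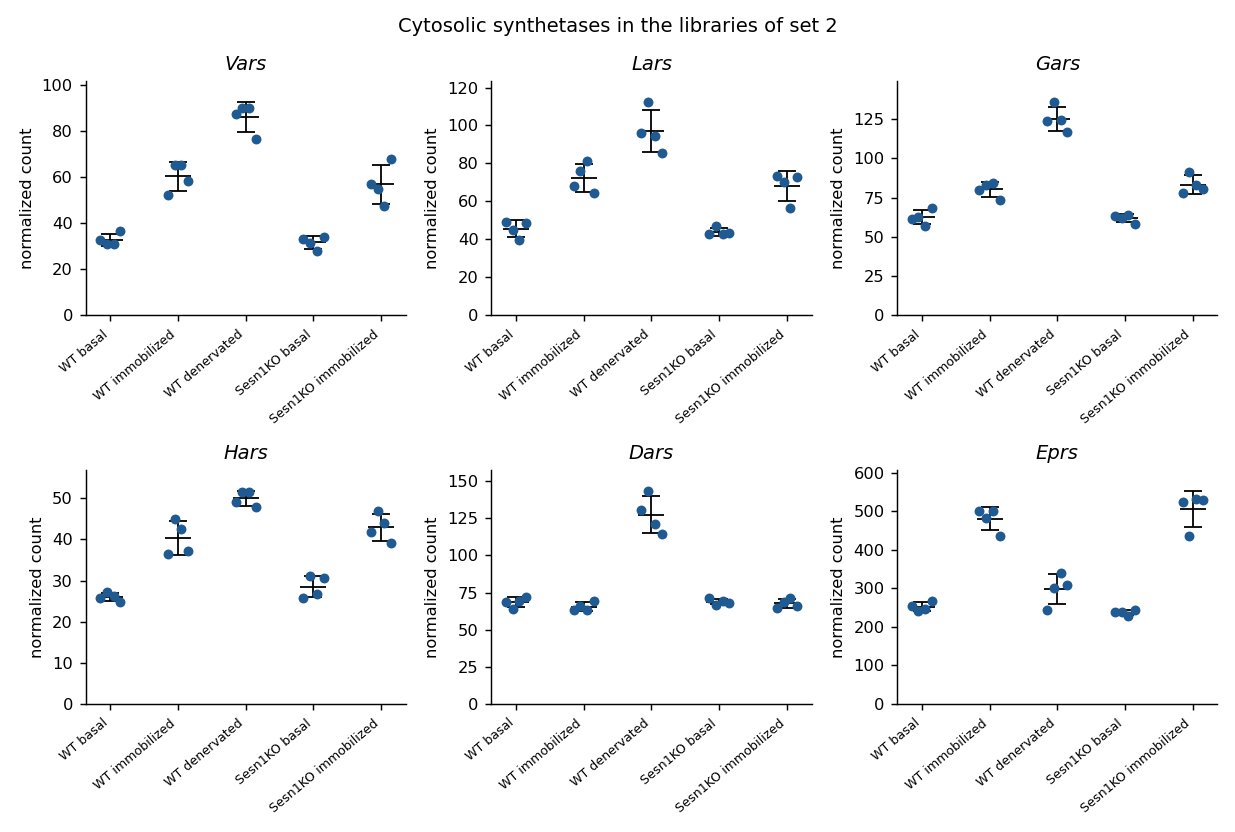
Normalized counts of 6 cytosolic members in the 5 groups of set 2, each panel starting at 0; points are libraries, and the black bar and whiskers are the mean and SD. Vars, Lars, Gars and Hars rise in order from basal to immobilized to denervated WT muscle, Dars is raised in denervated muscle (114 to 143), and Eprs is highest in the immobilized groups.

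On the mitochondrial side few members were called after denervation. Of the 16 members 1 rose, 4 fell and 11 were not called (median log2 fold change -0.085), against 27.8% of all genes called higher and 27.7% called lower. Ears2, the mitochondrial glutamyl enzyme, rose. It read 7.99, 6.56, 6.06 and 8.49 in basal and 10.8, 12.3, 12.6 and 10.9 in denervated muscle, with no overlap (log2 fold change 0.62 ± 0.13 (SE), limma adjusted p = 0.000344). The fall was largest for Fars2, the mitochondrial phenylalanyl enzyme, which read 31.3, 27.9, 26.1 and 24.1 in basal and 13.5, 18.8, 14.7 and 16.4 in denervated muscle (log2 fold change -0.76 ± 0.12 (SE), limma adjusted p = 1.12e-05). Pars2, the prolyl enzyme, read 3.77, 3.76, 4.32 and 5.54 in basal and 2.67, 3.53, 1.95 and 3.11 in denervated muscle (log2 fold change -0.49 ± 0.16 (SE), limma adjusted p = 0.0122), so that every denervated value of these low values was below every basal one. Cars2 (-0.40) and Hars2 (-0.38) were also called lower, but after rescaling to the same sum their changes turned to 0.034 and 0.055 and were not called. With that rescaling 7 mitochondrial members were called higher and 1 lower. Of all genes 8254 were then called, 77.2% of them higher, so these calls moved with all genes and give no direction of the list. Relative to the median of all genes the list was near 0 either way (-0.058 as deposited, 0.019 after rescaling).

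**Figure D3:**
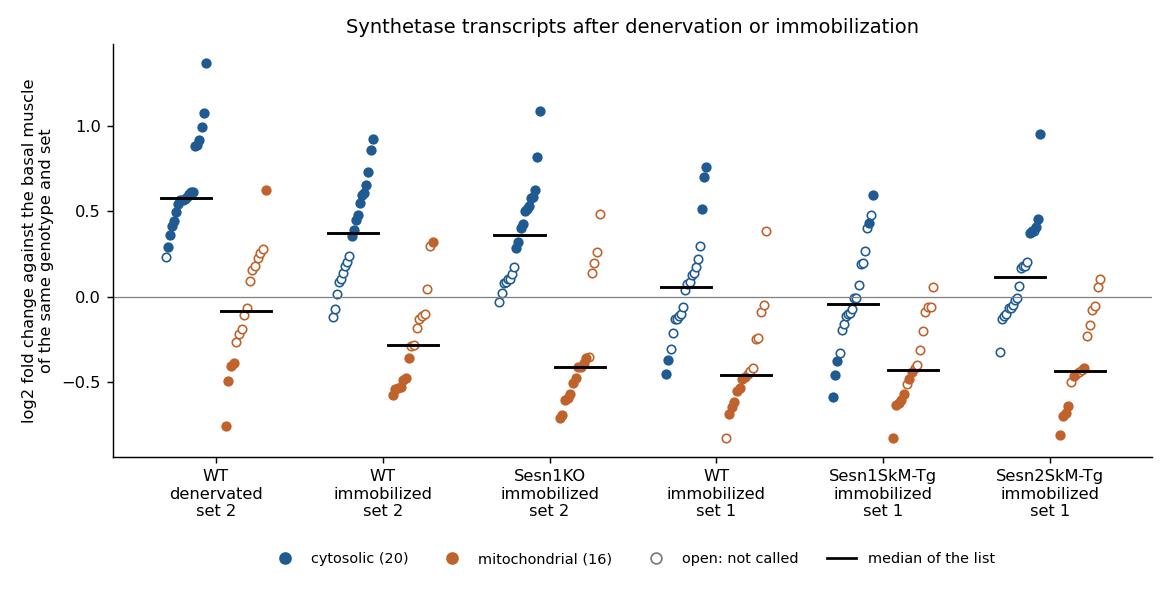
Log2 fold change of each member against the basal muscle of its own genotype and set, for denervation and for the 5 immobilization comparisons; filled points were called and open points were not, and black lines are list medians. The cytosolic list (blue) lies above 0 in denervated and immobilized muscle of set 2 and, as deposited, near 0 in set 1, where after rescaling to the same sum its medians are 0.39 in WT, 0.26 in Sesn1SkM-Tg and 0.43 in Sesn2SkM-Tg muscle (all genes 0.28, 0.25 and 0.26). The mitochondrial list (orange) has its median below 0 in all 6 comparisons, which after rescaling to the same sum no longer holds for denervation.

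Immobilization of WT muscle in set 2 raised part of the cytosolic list and lowered part of the mitochondrial list. Of the 20 cytosolic members 11 rose and 0 fell (median 0.37), against 16.2% of all genes called higher and 17.7% called lower. The order of the members differed from that after denervation, with Eprs first. Eprs read 501, 482, 500.2 and 437 in immobilized muscle, against 240.3 to 268 in basal muscle (log2 fold change 0.92 ± 0.092 (SE), limma adjusted p = 2.02e-07). Vars read 52.1, 65.1, 65.3 and 58.3 (log2 fold change 0.86 ± 0.11 (SE), limma adjusted p = 3.08e-06). Aars read 107, 108, 102 and 124 in basal and 169, 229, 191 and 150.4 in immobilized muscle (log2 fold change 0.73 ± 0.11 (SE), limma adjusted p = 4.23e-05). None of these 3 overlapped between the groups, although the immobilized Aars libraries were spread widely. Lars read 68.1, 75.9, 81.1 and 64.5 in immobilized muscle (log2 fold change 0.65 ± 0.10 (SE), limma adjusted p = 4.96e-05), and Hars read 36.6, 45.1, 42.4 and 37.1 (log2 fold change 0.61 ± 0.088 (SE), limma adjusted p = 2.08e-05). Both lay above all of the basal values given above. Nars (0.60), Tars (0.55), Kars (0.48), Cars (0.45), Sars (0.39) and Gars (0.36) were the other called members. The 9 members that were not called had log2 fold changes between -0.12 and 0.24. A total of 10 cytosolic members were called higher in denervated and in immobilized WT muscle, which were compared with the same 4 basal libraries. Of all genes, 27.8% and 16.2% were called higher in these comparisons, and the share called in both was not counted.

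On the mitochondrial side, 7 members fell, 1 rose and 8 were not called (median -0.28), against 17.7% of all genes called lower and 16.2% called higher. Yars2, the tyrosyl enzyme, read 13.8, 12.2, 13.8 and 13.7 in basal and 8.51, 10.3, 8.35 and 7.61 in immobilized muscle (log2 fold change -0.57 ± 0.12 (SE), limma adjusted p = 0.000837). Tars2, the threonyl enzyme, read 22.2, 24.7, 21.4 and 25.6 in basal and 13.9, 14.9, 15.4 and 19.7 in immobilized muscle (log2 fold change -0.54 ± 0.11 (SE), limma adjusted p = 0.000835). In both, every immobilized value was below every basal value. Hars2, the histidyl enzyme, read 18.6, 19.9, 15.5 and 17.8 in basal and 13.1, 13.6, 11.1 and 10.5 in immobilized muscle, again without overlap (log2 fold change -0.53 ± 0.11 (SE), limma adjusted p = 0.00104). Aars2 (-0.53), Cars2 (-0.49), Mars2 (-0.47) and Fars2 (-0.36) also fell. The single rise was that of Iars2, the isoleucyl enzyme, which read 79.9, 74.9, 72.9 and 71.8 in basal and 93.3, 97.3, 93.4 and 89.98 in immobilized muscle (log2 fold change 0.32 ± 0.091 (SE), limma adjusted p = 0.00946). Iars2 is the member given above with the largest share of transcript sequence in common with another gene. After rescaling, 2 mitochondrial members were called higher and 6 lower, where 4564 of all genes were called, 64.4% of them higher. Relative to the median of all genes the list was at -0.26 as deposited and -0.25 rescaled.

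**Figure D4:**
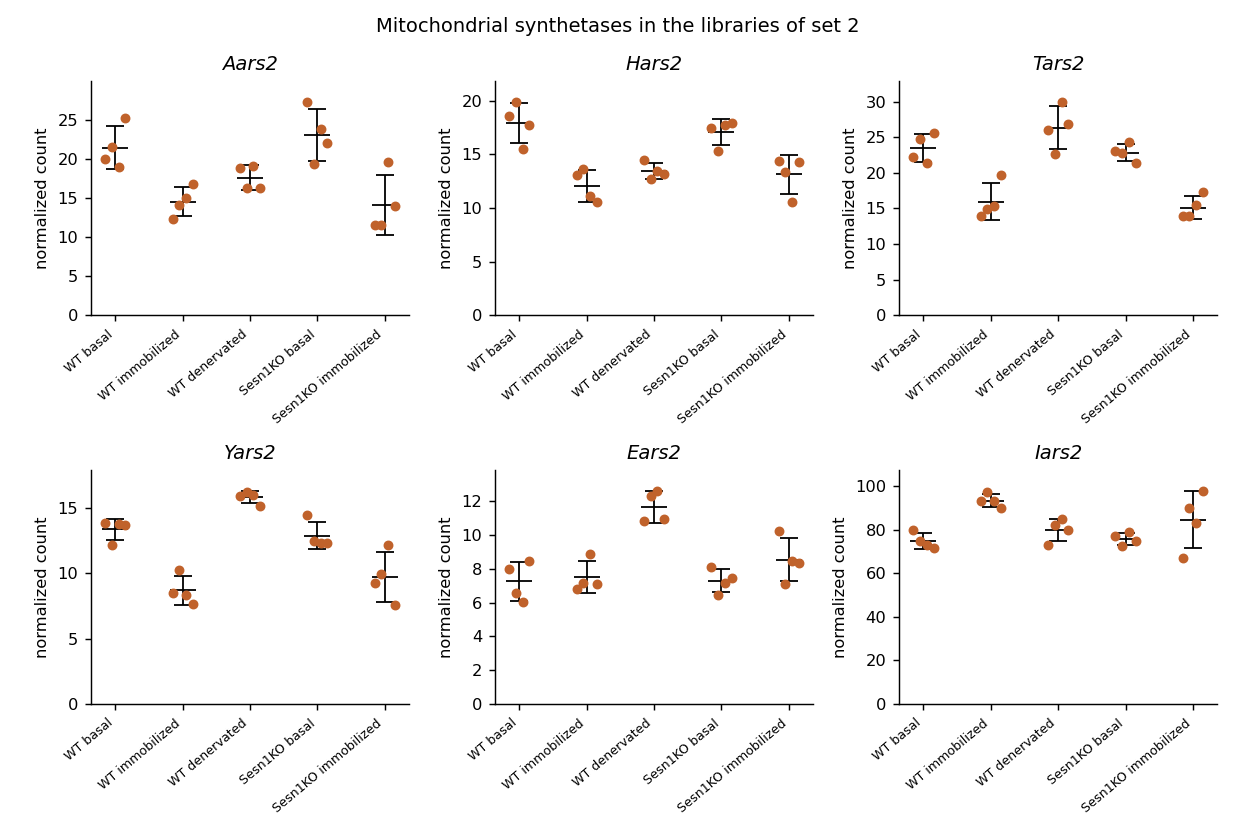
Normalized counts of 6 mitochondrial members in the 5 groups of set 2, each panel starting at 0; points are libraries, and the black bar and whiskers are the mean and SD. Aars2, Hars2, Tars2 and Yars2 are lower in the immobilized than in the basal WT group, Yars2 (15.1 to 16.2) and Ears2 (10.8 to 12.6) are highest in denervated muscle, and Iars2 is highest in immobilized WT muscle by its mean.

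Denervated and immobilized WT muscle of set 2 also differed directly. Of the cytosolic members 12 were higher and 1 was lower in denervated muscle (median 0.32), against 20.5% and 18.4% of all genes. After rescaling 18 were higher and 1 was lower, where 6695 of all genes were called, 82.3% of them higher. Dars differed most. It read 68.6, 64.2, 69.5 and 72.1 in basal, 62.97, 66.1, 63.1 and 69.2 in immobilized and 131, 143, 121 and 114 in denervated muscle. Immobilized and basal values of Dars overlapped (log2 fold change -0.069 ± 0.074 (SE), limma adjusted p = 0.507), and the denervated values lay above both (log2 fold change 0.95 ± 0.074 (SE), limma adjusted p = 3.77e-09 against immobilized muscle). Eprs went the other way, with 243 to 339.6 in denervated and 437 to 501 in immobilized muscle (log2 fold change -0.69 ± 0.092 (SE), limma adjusted p = 4.14e-06). Gars was higher in denervated muscle (117 to 136 against 73.7 to 84.5; log2 fold change 0.64 ± 0.077 (SE), limma adjusted p = 1.4e-06). So was Farsa, which read 18.6, 20.8, 15.8 and 14.5 in immobilized and 28.9, 25.04, 25.5 and 28.4 in denervated muscle (log2 fold change 0.61 ± 0.10 (SE), limma adjusted p = 7.15e-05). Vars was higher as well (log2 fold change 0.51 ± 0.11 (SE), limma adjusted p = 0.00061), with 76.5 to 90.02 against 52.1 to 65.3. The ranges of these 5 genes did not overlap between the treatments. Iars, Lars, Mars, Farsb, Tars, Rars, Hars and Qars were the remaining members called higher, by 0.27 to 0.50. Of the mitochondrial members 4 were higher and 1 was lower. Yars2 read 15.9, 16.2, 15.97 and 15.1 in denervated muscle, above all its basal and immobilized values (log2 fold change 0.80 ± 0.12 (SE), limma adjusted p = 1.96e-05). Tars2 read 25.9, 22.6, 29.9 and 26.9 (log2 fold change 0.69 ± 0.11 (SE), limma adjusted p = 4.8e-05), and Ears2 differed by 0.58 ± 0.13 (SE, limma adjusted p = 0.00123). Denervated values of both lay above all immobilized values. Wars2, for tryptophan, was higher (0.57) and Fars2 was lower (-0.40), the latter with overlapping libraries. After rescaling, 10 mitochondrial members were higher and 0 were lower, where 82.3% of all called genes were higher. Without the fourth immobilized library 7 were higher and 1 was lower.

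In Sesn1KO muscle of set 2, immobilization raised 12 cytosolic members and lowered 0 (median 0.36), against 17.2% of all genes called higher and 19.9% called lower. The 11 members called higher in immobilized WT muscle of the set were among the 12, and the other was Rars (0.32). How many of all genes were called higher in both genotypes was not counted. Eprs read 239, 239, 228 and 243 in basal and 525, 436, 533 and 529.7 in immobilized Sesn1KO muscle (log2 fold change 1.08 ± 0.092 (SE), limma adjusted p = 1.59e-08). Vars read 33.2, 31.2, 27.97 and 34.05 in basal and 57.1, 54.6, 47.2 and 67.9 in immobilized muscle (log2 fold change 0.82 ± 0.11 (SE), limma adjusted p = 3.74e-06). The immobilized values of both genes lay above the basal values. Lars read 42.6, 46.8, 42.6 and 43.3 in basal and 73.5, 70.1, 56.6 and 72.9 in immobilized muscle (log2 fold change 0.62 ± 0.10 (SE), limma adjusted p = 6.56e-05), Nars 106, 109, 104 and 108 in basal and 157, 158, 158 and 169 in immobilized muscle (log2 fold change 0.58 ± 0.078 (SE), limma adjusted p = 5.99e-06). Hars read 25.8, 31.01, 26.7 and 30.6 in basal and 41.8, 46.9, 44.01 and 39.1 in immobilized muscle (log2 fold change 0.58 ± 0.088 (SE), limma adjusted p = 2.58e-05). None of these overlapped. Of the mitochondrial members 11 fell and 0 rose (median -0.41), or 5 and 0 after rescaling. With that rescaling 4937 of all genes were called, 60.1% of them higher. Mars2 read 12.4, 12.1, 14.5 and 11.3 in basal and 7.38, 7.09, 7.89 and 6.76 in immobilized muscle (log2 fold change -0.71 ± 0.12 (SE), limma adjusted p = 6.97e-05). Aars2, the alanyl enzyme, read 27.3, 19.4, 23.8 and 22 in basal and 11.5, 11.5, 19.7 and 13.99 in immobilized muscle (log2 fold change -0.69 ± 0.15 (SE), limma adjusted p = 0.000867), where the third immobilized library reached into the basal range. Vars2, the valyl enzyme, read 13.4, 12.7, 14.4 and 11.8 in basal and 7.08, 7.54, 8.71 and 9.90 in immobilized muscle without overlap (log2 fold change -0.60 ± 0.15 (SE), limma adjusted p = 0.00312). Fars2, Tars2, Sars2 for serine, Nars2, Pars2, Cars2, Yars2 and Hars2 fell by 0.36 to 0.59, and Pars2 lost its call in 7 of the 8 fits that left out a library. Without the first basal Sesn1KO library 7 mitochondrial members were called, all lower.

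After immobilization of WT muscle in set 1, 3 cytosolic members rose and 2 fell (median 0.060). These counts did not stand out from the shares of all genes called higher (14.9%) and lower (14.5%). After rescaling 10 rose and 0 fell, where 4834 of all genes were called, 84.7% of them higher. Eprs read 359, 362, 263 and 164 in basal and 542, 451 and 406 in immobilized muscle (log2 fold change 0.76 ± 0.22 (SE), limma adjusted p = 0.013), with basal libraries spread from 164 to 362. Vars read 32.9, 35.6, 35.5 and 42.6 in basal and 63.6, 59.9 and 56.5 in immobilized muscle (log2 fold change 0.70 ± 0.12 (SE), limma adjusted p = 0.000373). Both genes were higher in every immobilized library. Hars read 30.7, 27.5, 28.1 and 32.3 in basal and 36.3, 40.5 and 52.7 in immobilized muscle (log2 fold change 0.51 ± 0.14 (SE), limma adjusted p = 0.01) without overlap. Iars fell from 104, 105, 87 and 94.7 to 78.1, 68.4 and 67.3 (log2 fold change -0.45 ± 0.12 (SE), limma adjusted p = 0.0104), and Farsa fell from 21.8, 21.1, 19.2 and 24.1 to 15.3, 17.97 and 16.1 (log2 fold change -0.37 ± 0.13 (SE), limma adjusted p = 0.0401). These 2 falls turn on the scaling, since no cytosolic member was called lower after rescaling. Of the mitochondrial members 7 fell and 0 rose (median -0.46). Aars2 read 19.3, 19.8, 20.5 and 31.4 in basal and 14.7, 14.5 and 11.5 in immobilized muscle (log2 fold change -0.68 ± 0.17 (SE), limma adjusted p = 0.00547), with the fourth basal library far above the others. Vars2 read 10.2, 11.5, 15.7 and 19.9 in basal and 7.30, 10.8 and 7.79 in immobilized muscle (log2 fold change -0.64 ± 0.18 (SE), limma adjusted p = 0.00948), with 1 immobilized library inside the basal range. Mars2 read 9.90, 14.2, 11.9 and 14.5 in basal and 8.23, 7.49 and 7.79 in immobilized muscle without overlap (log2 fold change -0.61 ± 0.18 (SE), limma adjusted p = 0.0148). Tars2 (-0.55), Yars2 (-0.53), Hars2 (-0.48) and Wars2 (-0.47) also fell. Without the third immobilized WT library, 2 cytosolic members (both higher) and 1 mitochondrial member were called, and after rescaling to the same sum 1 mitochondrial member was called, as higher. Relative to the median of all genes the mitochondrial list was at -0.46 as deposited and -0.43 rescaled. The 7 leukocyte markers that were found rose in all 7 of 7 (median log2 fold change 2.30), their sum going from 40.7 to 61.0 in basal to 205 to 403 in immobilized libraries, and 4 of 8 fiber markers fell. Their part in these results was not tested.

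In Sesn1SkM-Tg muscle 2 cytosolic members rose and 3 fell after immobilization (median -0.041). These counts did not exceed the shares of all genes called higher (18.2%) and lower (16.5%). After rescaling 8 rose and 0 fell, where 5021 of all genes were called, 82.6% of them higher. Vars read 33.6, 37.3, 40.7 and 40.7 in basal and 53.6, 54.3 and 66.8 in immobilized muscle (log2 fold change 0.60 ± 0.12 (SE), limma adjusted p = 0.00108), and Hars 29.8, 28.97, 32 and 35.6 in basal and 46.98, 39.9 and 42.1 in immobilized muscle (log2 fold change 0.43 ± 0.14 (SE), limma adjusted p = 0.0213). Iars read 100.1, 91.4, 82.5 and 94.4 in basal and 59.6, 62.5 and 60.5 in immobilized muscle (log2 fold change -0.59 ± 0.12 (SE), limma adjusted p = 0.00133). In these 3 genes the groups did not overlap. Without the first immobilized library 1 cytosolic member was called higher and 2 lower, and the Hars call was lost in 4 of 7 fits that left out a library. Farsa read 20.2, 20.9, 24.99 and 23.2 in basal and 17.6, 12.8 and 17.9 in immobilized muscle (log2 fold change -0.46 ± 0.13 (SE), limma adjusted p = 0.0108), and Yars 55.8, 56.3, 65.6 and 59.3 in basal and 44.9, 39 and 53.6 in immobilized muscle (log2 fold change -0.37 ± 0.12 (SE), limma adjusted p = 0.0237), lower in every immobilized library. Of the mitochondrial members 7 fell and 0 rose (median -0.43), or 1 and 0 after rescaling. Aars2 read 20.7, 19.8, 22.1 and 24.9 in basal and 11.6, 12.8 and 11.3 in immobilized muscle (log2 fold change -0.82 ± 0.17 (SE), limma adjusted p = 0.00114). Wars2 read 7.72, 5.77, 6.88 and 6.92 in basal and 4.56, 4.21 and 3.39 in immobilized muscle (log2 fold change -0.63 ± 0.16 (SE), limma adjusted p = 0.00408), and Vars2 12.98, 12.2, 13.5 and 13.7 in basal and 8.31, 8.33 and 7.91 in immobilized muscle (log2 fold change -0.62 ± 0.18 (SE), limma adjusted p = 0.00985). None of the 3 overlapped between the groups. All 7 leukocyte markers rose here too (median 2.49), their sum going from 28.9 to 60.4 in basal to 162 to 440 in immobilized libraries. All 4 fibroblast markers rose (median 1.51), with sums of 324 to 500.3 in basal and 815 to 2280 in immobilized libraries, and 3 of 3 Schwann cell and 3 of 4 endothelial markers rose (medians 0.90 and 0.56). Of the 8 fiber markers 4 fell (Actn3, Ckm, Myh4 and Pvalb), 1 of 2 adipocyte markers fell, and no satellite cell marker was called. The part of these markers in the results was not tested.

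In Sesn2SkM-Tg muscle immobilization raised 5 cytosolic members and lowered 0 (median 0.12), against 15% and 15.7% of all genes. After rescaling 12 rose and 0 fell, where 4892 of all genes were called, 80.4% of them higher. Vars showed its largest rise among the immobilization comparisons, from 37.9, 49.7, 43.7 and 39.1 to 76.4, 89.8, 82.2 and 83.5 (log2 fold change 0.95 ± 0.11 (SE), limma adjusted p = 4.14e-06). Nars read 127, 103, 147 and 133 in basal and 157, 187, 159 and 194 in immobilized muscle (log2 fold change 0.45 ± 0.12 (SE), limma adjusted p = 0.00727), and Aars 131, 165, 135 and 139 in basal and 172, 214, 172 and 201 in immobilized muscle (log2 fold change 0.41 ± 0.12 (SE), limma adjusted p = 0.0127). In these 3 genes every immobilized library was above every basal one. Hars read 30.01, 40.5, 29.1 and 32.1 in basal and 39.3, 47.3, 37.9 and 47.7 in immobilized muscle (log2 fold change 0.38 ± 0.13 (SE), limma adjusted p = 0.0301), and Lars 67.5, 59.8, 69.9 and 57.1 in basal and 72.6, 102, 66.6 and 93.8 in immobilized muscle (log2 fold change 0.37 ± 0.14 (SE), limma adjusted p = 0.0493). Both overlapped between the groups, and leaving out a library ended the Lars call in 6 of 8 fits and the Hars call in 5 of 8. The count of 5 went to 2 without the second immobilized library, and to 3 without the fourth immobilized library or without the fourth basal library. Of the mitochondrial members 6 fell and 0 rose (median -0.43), or 3 and 0 after rescaling. Tars2 read 26.98, 40.2, 25.7 and 27.1 in basal and 14.3, 15.7, 18.9 and 17.1 in immobilized muscle (log2 fold change -0.81 ± 0.15 (SE), limma adjusted p = 0.000297), with the second basal library far above the rest. Aars2 read 25.2, 33.2, 21.9 and 24.3 in basal and 18.4, 12.6, 17.04 and 14.9 in immobilized muscle (log2 fold change -0.70 ± 0.16 (SE), limma adjusted p = 0.00228), and Vars2 16.2, 20.9, 15.8 and 17.97 in basal and 11.02, 9.14, 11.3 and 11.1 in immobilized muscle (log2 fold change -0.68 ± 0.16 (SE), limma adjusted p = 0.0033), without overlap. Cars2 (-0.64), Hars2 (-0.46) and Wars2 (-0.42) also fell. Of the leukocyte markers 3 of 7 rose (median 0.84), with sums of 44.0 to 64.3 in basal and 90.8 to 262 in immobilized libraries. Of the endothelial markers 3 of 4 rose (median 0.97), with sums of 128 to 149.7 in basal and 226 to 298 in immobilized libraries, and 3 of 3 Schwann cell markers rose (median 0.80). Of the 8 fiber markers 5 fell (median -0.83), and no fibroblast, satellite cell or adipocyte marker was called. The part of these markers was not tested.

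Across the 5 immobilization comparisons, Hars and Vars were called higher in all 5, and Aars2, Hars2 and Tars2 were called lower in all 5. In each comparison 14.9% to 18.2% of all genes were called higher and 14.5% to 19.9% lower. The share of all genes called alike in all 5 was not counted, so these members cannot be set against it. The 2 comparisons of set 2 do not share libraries with the 3 of set 1. Hars and Hars2, the cytosolic and mitochondrial histidyl enzymes, lie head to head on the genome with annotated starts 197 bases apart, and 146 of their 50-base runs occur in transcripts of both, which is 5.87% of the runs of Hars and 3.37% of those of Hars2. Reads from that stretch cannot be assigned by strand. After rescaling to the same sum, all 3 mitochondrial calls were lost in WT muscle of set 1, the Tars2 call was also lost in Sesn1SkM-Tg muscle, and the Hars2 call was lost in Sesn1KO, Sesn1SkM-Tg and Sesn2SkM-Tg muscle as well, so that Hars2 was then called in 1 of the 5 comparisons, that of WT muscle in set 2. As deposited, Hars was called higher and Hars2 lower in each of these comparisons. In set 2, leaving out a library ended the Hars2 call in 0 of 8 fits in WT and 1 of 8 in Sesn1KO muscle. In set 1 it ended the Hars2 call in 3 of 7 fits in WT and 5 of 7 in Sesn1SkM-Tg muscle. The Hars call was lost in 1 of 7 and 4 of 7 of these fits of set 1.

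In immobilized muscle of set 1, Sesn2SkM-Tg exceeded WT in 4 of the 36 members, all cytosolic, against 2.94% of all genes called in either direction. Aars read 116, 134 and 133 in WT and 172, 214, 172 and 201 in Sesn2SkM-Tg immobilized muscle (log2 fold change 0.57 ± 0.13 (SE), limma adjusted p = 0.0218). Cars read 41.2, 43.2 and 36.97 in WT and 55.6, 55.9, 64.2 and 63.9 in Sesn2SkM-Tg muscle (log2 fold change 0.55 ± 0.12 (SE), limma adjusted p = 0.0202). In both genes every Sesn2SkM-Tg library was above every WT library. Mars read 60.4, 60.4 and 55.7 in WT and 85.3, 89.6, 84.1 and 81.1 in Sesn2SkM-Tg muscle (log2 fold change 0.52 ± 0.11 (SE), limma adjusted p = 0.0163), and Vars 63.6, 59.9 and 56.5 in WT and 76.4, 89.8, 82.2 and 83.5 in Sesn2SkM-Tg muscle (log2 fold change 0.46 ± 0.12 (SE), limma adjusted p = 0.0451). Neither overlapped. These calls rested on the 3 WT libraries, because without the third immobilized WT library 0 members were called and without the first 1 was. Without the second or the third immobilized Sesn2SkM-Tg library 2 were called, and the Vars call was lost in all 7 fits that left out a library. After rescaling 3 members were called, and so were 359 of all genes. In basal muscle, Sesn2SkM-Tg against WT called 0 members, with 2.5% of all genes called by limma and 3 members at an unadjusted p below 0.05. That share of members was below that of all genes, of which 2136 of 13705 had such a p. The basal values of Mars (76.5 to 104 against 61.6 to 75.7 in WT) did not overlap, but Mars was not called (log2 fold change 0.33 ± 0.10 (SE), limma adjusted p = 0.0965), and without the fourth basal WT library 3 members were called. Among the leukocyte markers, 2 of 7 were lower in immobilized Sesn2SkM-Tg than in immobilized WT muscle, with sums of 90.8 to 262 against 205 to 403, and their part in the 4 calls was not tested.

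**Figure D5:**
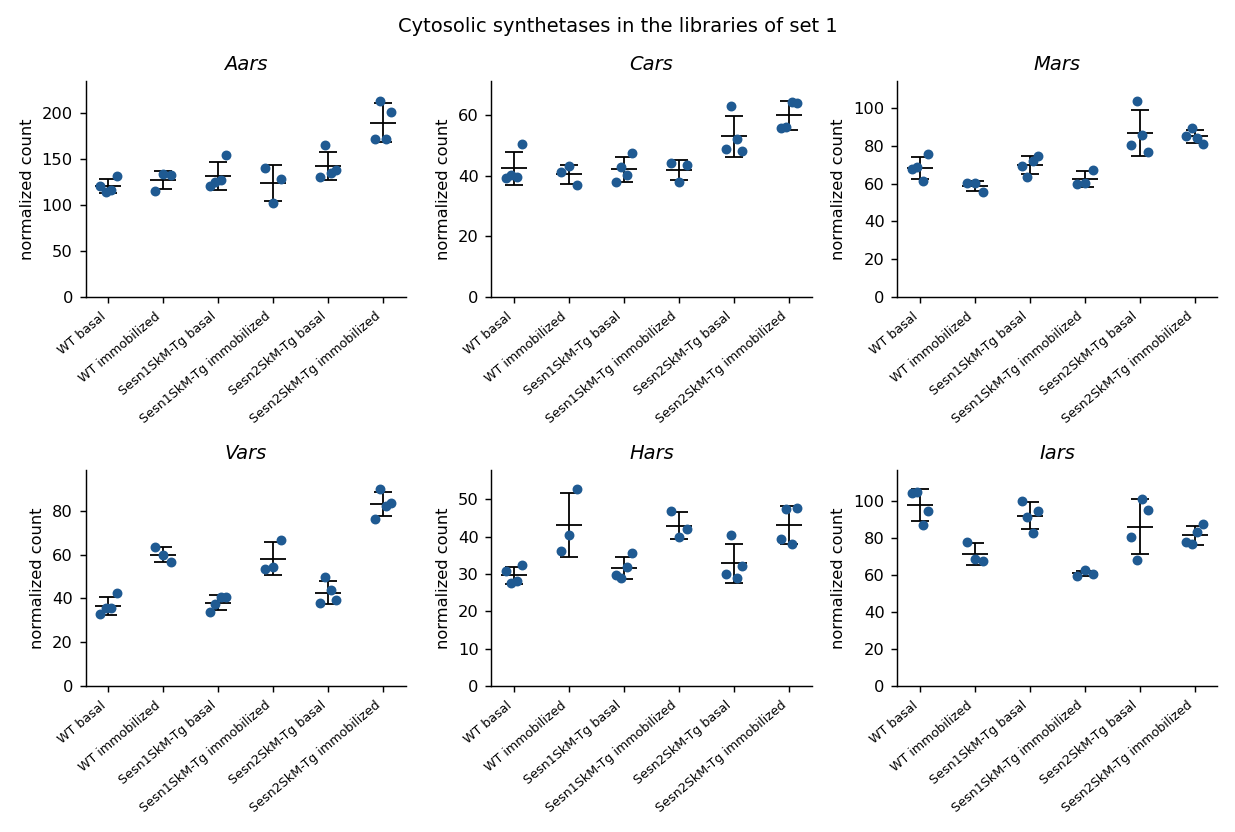
Normalized counts of 6 cytosolic members in the 6 groups of set 1, each panel starting at 0; points are libraries, and the black bar and whiskers are the mean and SD. Aars, Cars, Mars and Vars are higher in immobilized Sesn2SkM-Tg than in immobilized WT muscle, Vars and Hars are higher in all 3 immobilized groups than in their basal groups by their means, and Iars is lower in immobilized WT and Sesn1SkM-Tg muscle.

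The other genotype comparisons called 0 of the 36 members. For Sesn1SkM-Tg against WT, 0.0292% of all genes were called in basal and 0.0073% in immobilized muscle, and 0 members reached an unadjusted p below 0.05 in limma in either. Of the 13705 genes tested, 497 reached such a p in basal and 417 in immobilized muscle. For Sesn1KO against WT, 0.147% of all genes were called in basal muscle, with 0 members and 632 of the 13629 genes tested at an unadjusted p below 0.05. In immobilized muscle 0.947% of all genes were called, with 3 members and 1917 genes at such a p. That share of members was below that of all genes. The log2 fold changes of the cytosolic members between Sesn1KO and WT lay between -0.093 and 0.12 in basal muscle and between -0.31 and 0.093 in immobilized muscle. The difference of the immobilization effect between genotypes was tested directly. It called 0 members for Sesn1SkM-Tg (0% of all genes), 0 for Sesn2SkM-Tg (0.0073%) and 0 for Sesn1KO (0.022%), with 0, 1 and 0 members at an unadjusted p below 0.05. In the same order 401, 1008 and 1087 of all genes had such a p in limma.

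The WT mice were immobilized in both sets, and the effect differed between them in 3 of the 36 members, all cytosolic. That share was close to the 6.2% of all genes called in either direction. The effect on Aars was smaller in set 1 than in set 2 by 0.65 on the log2 scale (-0.65 ± 0.17, limma adjusted p = 0.0169), from 0.077 against 0.73. The difference for Iars was -0.56 ± 0.16 (limma adjusted p = 0.0261), with -0.45 in set 1 and 0.11 in set 2. For Cars it was -0.51 ± 0.14 (limma adjusted p = 0.0232), with -0.061 and 0.45. In set 1 Aars read 121, 114, 116 and 132 in basal and 116, 134 and 133 in immobilized muscle, whose ranges overlapped, whereas those of set 2 given above did not. Cars read 39.4, 40.1, 39.7 and 50.4 in basal and 41.2, 43.2 and 36.97 in immobilized muscle of set 1, and 38.1, 35.3, 35.5 and 43.1 in basal and 50.7, 52.8, 53.5 and 51.5 in immobilized muscle of set 2. Iars read 80.04, 66.4, 75.6 and 85.9 in basal and 69.1, 91.7, 89.7 and 81.9 in immobilized muscle of set 2. All 20 cytosolic differences were below 0 (median -0.29), and 10 had an unadjusted p below 0.05. Of the 13763 genes tested in limma, 3087 had such a p. The count of 3 went to 1 without the third immobilized library of set 1 or the second basal or the second immobilized library of set 2, and to 6 without the fourth basal library of either set or without the fourth immobilized library of set 2. After rescaling to the same sum, 0 members were called, and relative to the median of all genes the cytosolic difference was -0.26. The set is a label of the libraries, and what differed between the sets cannot be told apart from it.

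Of the cytosolic enzymes, 8 (Dars, Eprs, Iars, Kars, Lars, Mars, Qars and Rars) form the multisynthetase complex with the scaffold proteins Aimp1, Aimp2 and Eef1e1. After denervation 7 of the 8 complex members and 12 of the 12 other members rose, with medians of 0.59 and 0.58, against 27.8% of all genes. After immobilization of WT muscle in set 2, 3 of 8 and 8 of 12 rose (medians 0.21 and 0.42). In Sesn1KO muscle 4 of 8 and 8 of 12 rose (medians 0.23 and 0.41). The shares of all genes called higher were 16.2% in WT and 17.2% in Sesn1KO muscle. The members of the complex ranged widely within a comparison, from Dars (-0.069) to Eprs (0.92) in immobilized WT muscle. In set 1, 2 of 8 complex members were called in WT muscle, Eprs as higher and Iars as lower. These counts were close to the shares of all genes called higher (14.9%) and lower (14.5%).

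Other genes of tRNA charging were followed as a list of 14, of which 13 were found by symbol. It holds the scaffolds, Tarsl2, the amidotransferase subunits Qrsl1 and Gatc, the exportin of tRNA Xpot, and proteins of proofreading and of selenocysteine charging. After denervation 4 rose and 3 fell (median -0.18), where 27.8% of all genes were called higher and 27.7% lower. Eef1e1 rose (log2 fold change 1.11 ± 0.14 (SE), limma adjusted p = 1.36e-06), Pstk, the kinase of selenocysteine tRNA charging, fell (log2 fold change -1.09 ± 0.11 (SE), limma adjusted p = 5.49e-08), and Qrsl1 fell (log2 fold change -1.02 ± 0.16 (SE), limma adjusted p = 1.7e-05). Immobilization raised 1 and lowered 3 in WT muscle of set 2 (all genes, 16.2% higher and 17.7% lower) and raised 1 and lowered 6 in Sesn1KO muscle (17.2% and 19.9%). In set 1 it raised 0 and lowered 3 in WT (14.9% and 14.5%), 3 in Sesn1SkM-Tg (18.2% and 16.5%) and 4 in Sesn2SkM-Tg muscle (15% and 15.7%). Xpot was the member raised in both genotypes of set 2 (0.76 in WT and 0.65 in Sesn1KO). Qrsl1 and Tarsl2 were called lower in all 5 immobilization comparisons, Qrsl1 by 0.57 to 1.06 and Tarsl2 by 0.42 to 0.88. The share of all genes called lower in all 5 was not counted. Aimp2 fell in the 3 genotypes of set 1, by 0.99 in Sesn1SkM-Tg muscle and by more in the other two.

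The ATF4 pathway was followed as a list of 19 genes for transcription factors, amino acid transport and amino acid synthesis, of which 18 were found. In denervated WT muscle 11 rose and 2 fell (median 0.59), where 27.8% of all genes were called higher and 27.7% lower. In immobilized muscle of set 2, 9 rose and 1 fell in WT (median 0.68; all genes, 16.2% higher and 17.7% lower) and 9 rose and 2 fell in Sesn1KO (median 0.61, against 17.2% and 19.9%). In immobilized muscle of set 1, 8 rose and 1 fell in WT (median 0.49, against 14.9% and 14.5%), 6 rose and 0 fell in Sesn1SkM-Tg (median 0.39, against 18.2% and 16.5%), and 11 rose and 0 fell in Sesn2SkM-Tg muscle (median 0.83, against 15% and 15.7%). Slc7a5, a transporter of large neutral amino acids, rose after denervation (log2 fold change 2.80 ± 0.21 (SE), limma adjusted p = 3.95e-10). Mthfd2, an enzyme of mitochondrial folate metabolism, rose by 1.84 after denervation and by 2.71 after immobilization of WT muscle in set 2, and Eif4ebp1, a repressor of cap-dependent translation, by 2.28 and 2.20. In immobilized muscle of set 1, 2 of the list were higher in Sesn2SkM-Tg than in WT. Of all genes 2.94% were called in either direction there. The 2 were Atf4 (log2 fold change 0.70 ± 0.16 (SE), limma adjusted p = 0.0201) and Cebpb, a C/EBP partner (log2 fold change 1.04 ± 0.25 (SE), limma adjusted p = 0.0309). Their part in the synthetase calls was not tested. Wars is known as an interferon-induced gene, and 12 interferon response genes were followed beside it. After denervation 8 of the 12 fell (median -0.74; all genes, 27.7% lower), where Wars rose (0.41). After immobilization 2 fell in WT and 3 in Sesn1KO muscle of set 2 (all genes, 17.7% and 19.9% lower) and none rose. In set 1, 5, 10 and 8 of the 12 rose after immobilization of WT, Sesn1SkM-Tg and Sesn2SkM-Tg muscle (medians 0.55, 0.95 and 0.80), against 14.9%, 18.2% and 15% of all genes, and Wars was not called (-0.13, -0.10 and -0.0044).

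The markers of other cells that whole muscle holds were counted beside these results, and their part in them was not tested. After denervation 27.8% of all genes were called higher and 27.7% lower. The shares in immobilized muscle of set 2 were 16.2% and 17.7% in WT and 17.2% and 19.9% in Sesn1KO. In immobilized WT muscle of set 1 they were 14.9% and 14.5%. After denervation 4 of 4 endothelial markers fell (median -0.99), 2 of 4 fibroblast markers fell (-0.75), 1 of 3 Schwann cell markers fell, 2 of 2 adipocyte markers fell, 0 of 3 satellite cell markers were called, and 1 of 7 leukocyte markers rose. After immobilization of WT muscle in set 2, 4 of 4 endothelial markers fell (median -0.60), 1 of 2 adipocyte markers fell, 2 of 7 leukocyte markers rose, and no fibroblast, Schwann or satellite cell marker was called. Of the 8 fiber markers Actn3 (-0.64), Ckm (-0.51) and Pvalb (-1.03) fell and Myh1 rose (0.53, log2 fold changes). After immobilization of Sesn1KO muscle 2 of 4 endothelial, 1 of 4 fibroblast, 1 of 3 Schwann cell and 3 of 8 fiber markers (Actn3, Ckm and Pvalb) fell, 1 of 7 leukocyte markers rose, and no satellite cell or adipocyte marker was called. After immobilization of WT muscle in set 1, 2 of 4 endothelial markers rose and 1 fell, 3 of 4 fibroblast markers rose (median 0.91), 2 of 3 Schwann cell markers rose, 1 of 3 satellite cell markers rose, and 0 of 2 adipocyte markers were called. The single cardiac marker fell after denervation and was not called after immobilization.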

How the data were processed

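Per the labels and the study's methods, RNA was extracted from tibialis anterior muscles and sequenced on an Illumina HiSeq after preparation with a kit that does not keep strand. The authors trimmed reads with cutadapt 1.7.1, aligned them to GRCm38, estimated expression with RSEM 1.2.20 and used limma for normalization. What they deposited is a linear normalized count per gene, handled here as a signal rather than a raw count, so that no count model was used. Library totals are not given in the sources used here, so the depth is unknown and no counting interval was computed. How the 2 sets were normalized relative to each other is not given in the sources used here, and comparisons were made within a set.

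Values were analysed as log2(value + 1) in limma 3.58.1 (R 4.3.3) for genes that reached 1 in any library of the set, with all groups of a set in one fit and a mean-variance trend. Adjustment of p-values (Benjamini-Hochberg) ran over all genes tested. Calls needed an adjusted p below 0.05 together with a log2 fold change of 0.25 or more in size. Fold changes on this scale understate those of low genes. The difference between the sets came from one fit over all 42 libraries, each effect being taken within its set. Tables and plots were made with Python 3.11.15, pandas 2.3.3 and matplotlib 3.10.9. Of the 13809 genes, 13715 (99.3%) matched GENCODE M21 by identifier. The fit was tested on simulated data with known changes.

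The members and all gene lists were chosen with earlier results of these data known. Per-library values are given for up to 5 cytosolic and 3 mitochondrial members with the largest change among those called in a treatment comparison, for each member called between genotypes or sets, and for the highest and lowest members per kb. From other lists at most the 3 called genes with the largest change were named, and genes called in several comparisons were added after their values were seen. Alternatives were the pseudocount, the filter, the scaling, the groups in the fit, the variance trend, the fold threshold, the replicate block and leaving out each library. A gene of the list of other tRNA charging genes is not reported here, and that list was counted without it.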

Additional observations from a re-analysis of the deposited data

Results flagged for a closer look

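In 324 tests, each of 1 member in 1 group of 4 libraries, 1 library stood apart from the other 3 by Dixon's criterion in 24 (7.41%). Chance gives about 1 in 20 per test, but tests of different members share libraries and are not independent. No explanation was tested.
The first library of the Sesn1KO basal set 2 group stood apart in Yars2 (14.41, others 12.32 to 12.42). The second library of the Sesn1KO basal set 2 group stood apart in Lars (46.77, others 42.58 to 43.29) and Mars (67.73, others 61.54 to 62.49). The third library of the Sesn1KO basal set 2 group stood apart in Qars (62.29, others 56.86 to 57.57) and Nars2 (8.553, others 7.015 to 7.173). The second library of the Sesn1KO immobilized set 2 group stood apart in Eprs (435.5, others 524.7 to 532.6). The fourth library of the Sesn1KO immobilized set 2 group stood apart in Nars (168.8, others 157.4 to 158.3) and Pars2 (3.593, others 2.814 to 2.867). The first library of the Sesn1SkM-Tg basal set 1 group stood apart in Lars2 (942.2, others 332.6 to 357.4). The fourth library of the Sesn1SkM-Tg basal set 1 group stood apart in Rars (39.53, others 51.31 to 53.38) and Tars2 (27.37, others 21.12 to 21.92). The second library of the Sesn2SkM-Tg basal set 1 group stood apart in Sars (153.3, others 102.5 to 109.5), Wars (47.13, others 39.17 to 40.53), Sars2 (18.36, others 11.83 to 12.93) and Tars2 (40.25, others 25.66 to 27.06). The first library of the Sesn2SkM-Tg immobilized set 1 group stood apart in Rars2 (18.15, others 14.67 to 14.79). The second library of the Sesn2SkM-Tg immobilized set 1 group stood apart in Qars (67.03, others 64.24 to 64.49) and Vars2 (9.143, others 11.02 to 11.31). The fourth library of the WT basal set 1 group stood apart in Cars (50.44, others 39.37 to 40.1), Aars2 (31.35, others 19.29 to 20.52) and Fars2 (38.29, others 19.41 to 22.06). The second library of the WT basal set 2 group stood apart in Yars2 (12.17, others 13.71 to 13.81). The fourth library of the WT immobilized set 2 group stood apart in Vars2 (15.99, others 10.13 to 10.51) and Wars2 (5.707, others 4.048 to 4.251).
The immobilization effect in WT muscle differed between the sets in limma, given as set 1 minus set 2 on the log2 scale. The differences were -0.6515 for Aars, -0.5112 for Cars and -0.5559 for Iars. These 3 of the 36 members were a share close to the 6.2% of all genes called. None of the 3 was called after rescaling each library to the same sum.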

How the results depend on the processing

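Among counts of called members recomputed under another setting, 289 stayed within 1.5 times the reported count and 22 did not. Of single called members, 1547 recomputed results kept their call, 86 lost it and 2 reversed. After rescaling each library to the same sum, Cars2 and Hars2 in denervated muscle turned from lower to 0.03411 and 0.05514 (limma adjusted p = 0.844 and 0.735). With that rescaling the mitochondrial count was 8 after denervation, 10 between denervated and immobilized muscle, 5 in immobilized Sesn1KO, 1 in immobilized WT of set 1, 1 in Sesn1SkM-Tg and 3 in Sesn2SkM-Tg muscle, the cytosolic count was 10, 8 and 12 in those 3 genotypes of set 1, and the difference between the sets called 0. The numbers of all genes called with that rescaling are given with the treatment comparisons above. Without the variance trend the mitochondrial count between denervated and immobilized muscle was 8. When a fit held only the groups compared, the mitochondrial count was 7 in Sesn1KO and 3 in WT of set 1, the cytosolic count was 1 in WT of set 1 and 3 in Sesn2SkM-Tg, and the difference between the sets called 1. Quantile normalization gave 3 cytosolic members in WT of set 1 and 0 for the difference between the sets, and median centring gave 5 for that difference. With all 42 libraries in one fit, 8 cytosolic members were called in Sesn1SkM-Tg, 10 mitochondrial members in Sesn2SkM-Tg, and 1 member between Sesn2SkM-Tg and WT basal muscle. Apart from the scaling of the library sums, whose effect is by construction, the cause of these changes was not tested.

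Leaving out 1 library at a time, the cytosolic count ranged from 18 to 20 after denervation, 11 to 12 in immobilized WT of set 2, 12 to 14 between denervated and immobilized muscle, 11 to 12 in Sesn1KO, 2 to 5 in WT of set 1, 3 to 6 in Sesn1SkM-Tg and 2 to 5 in Sesn2SkM-Tg muscle. The mitochondrial count ranged from 4 to 5, 7 to 9, 5 to 8, 7 to 10, 1 to 9, 5 to 7 and 4 to 8 in the same order. Between Sesn2SkM-Tg and WT it ranged from 0 to 3 members in basal and 0 to 3 in immobilized muscle, and for the difference between the sets from 1 to 6.

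Same-numbered libraries did not deviate together (correlations -0.222 to 0.154), so the replicate numbers were not taken as pairs. With the replicate number as a block, the counts were 19, 11, 13, 12, 4, 5 and 4 cytosolic and 5, 8, 5, 11, 6, 6 and 6 mitochondrial members in the order above, 3 between immobilized Sesn2SkM-Tg and WT muscle and 3 between the sets, and no count moved by more than 1.5 times.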
